A study of Mus musculus with 8 samples.

Results

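Vγ7+ intraepithelial lymphocytes (IELs), the γδ T cells that settle in the mouse small intestinal epithelium, were compared here at 36 genes from a run of 100 consecutive gene numbers, most of them short and most of them more abundant in CD122hi than in CD122lo cells. The 36 genes were chosen from these same measurements. The files hold 33050 genes, of which 13313 passed a minimum mean of 1 TPM in the 8 samples. A gene among these was marked when its mean effective length was under 1800 bases and its log2 ratio of CD122hi to CD122lo was above 0.5 in each of 4 preparations. TPM scales fragments to gene length and to a fixed total per sample, and the ratio was taken on CPM, which are counts scaled to a total of 1000000 per sample, with a pseudocount of 1 CPM. Of all runs of 100 consecutive gene numbers, the run from 7014 to 7113 was the first of 54 tied runs to hold the most marked genes. Members were all 36 genes of that run with a mean TPM above 1, of which 27 were marked and 9 were not.

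IELs were sorted from pooled litters (2 to 3 per preparation) of C57Bl/6J pups at postnatal days 14 to 17, with no other allele or agent named in the labels. Each of the preparations numbered 2, 3, 5 and 8 gave a CD122hi and a CD122lo sample of about 10000 to 20000 cells from the same mice, so there were 4 samples per population. Libraries were made from total RNA with a kit that removes ribosomal RNA, keeps strand and does not select polyadenylated RNA. The comparison addresses how mature IELs differ from the cells thought to give rise to them.

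CD122 is the β chain shared by the receptors for interleukin-2 and interleukin-15, cytokines that sustain proliferation and survival of lymphocytes, and a high level of it served as a mark of mature Vγ7+ IELs in the study. The files number their genes and list UCSC transcripts without gene symbols, and the annotation used here holds no UCSC identifiers. Therefore members were not named, their functions are not given, no sequence is shown, and neither Il2rb (the gene of CD122) nor markers of other cell types were checked. By number only 4 members are given, chosen by rank as described under the processing. All others are described by their rank in mean TPM among the 36 members or by length. Paralogous genes with near-identical copies often lie side by side in mammalian genomes, and short reads from such copies fit several of them. RSEM, the program that made the values, shares such reads out by a model, so sums over members are given beside single genes.

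Totals of expected counts ranged from 19267478 to 34060340 per sample. In each of the 12 pairs of samples of one population, chi-square per gene was 30.7 or more, where sampling noise gives about 1, so each library was counted as a sample of its own. The first principal component of all tested genes held 69.0% of the variance and put preparations 2 and 3 on one side and preparations 5 and 8 on the other, so values are given within each preparation. These are bulk samples, in which more cells of a kind and more RNA per cell cannot be told apart.

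Marked genes were concentrated by number. Of the 13313 genes tested, 177 were marked (1.33%), and 27 of the 177 (15.3%) lay in the chosen run. The run with the next most marked genes that did not overlap it, from 6877 to 6976, held 19, the next after it, from 18786 to 18885, held 7, and the fourth held 4. The run with 19 nearly adjoined the chosen one, and from number 6877 to number 7113, 237 numbers in all, 46 genes were marked. Without the limit on length, 485 genes (3.64%) had a log2 ratio above 0.5 in all preparations, and the same run was chosen with the same 27 marked genes.

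**Figure D1:**
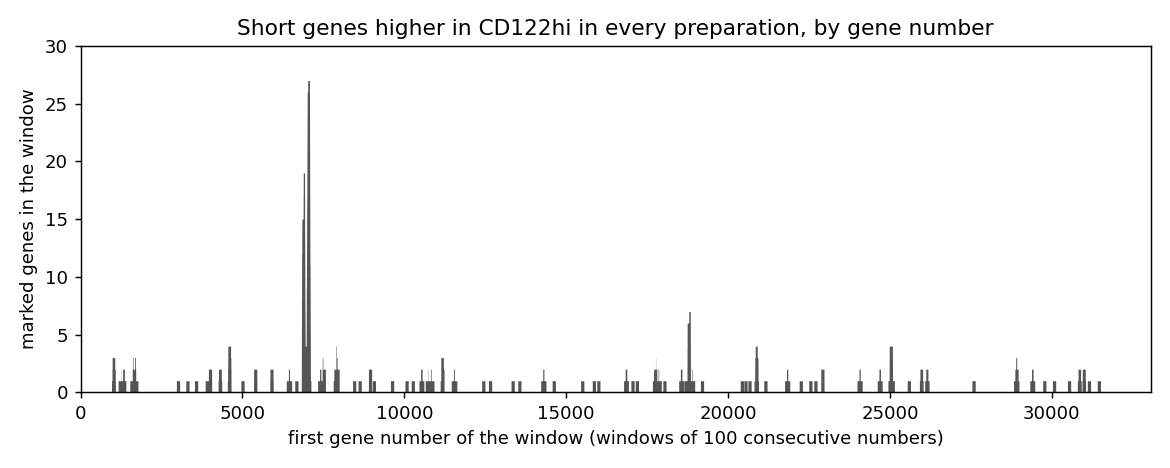
Number of marked genes (y axis) in each window of 100 consecutive gene numbers, by the first number of the window (x axis). The highest peak, at 27 marked genes, starts at number 7014, its neighbour reaches 19, and the peak near 18786 reaches 7.

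Within the chosen run the marked members were packed closely. A stretch of 31 consecutive numbers, positions 54 to 84 of the run, held 28 members, and 26 of these were marked, 16 of them without a gap. Only 1 marked member lay apart, at position 100. Of the other 64 numbers in the run, which did not reach a mean TPM of 1, 44 were between 71 and 96 bases long, with effective lengths of 14.1 to 23.2 bases, and had 0 counts in all 8 samples. Hardly any fragment can be assigned to entries of this effective length, so these counts of 0 say nothing of their expression. The remaining 20 non-members reached at most 1.55 CPM in any sample.

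The summed counts of the 27 marked members were higher in CD122hi cells in every preparation, as the rule required of each member. They amounted to 9552, 4955, 6773 and 8805 CPM in the CD122hi samples of preparations 2, 3, 5 and 8, and to 2899, 1626, 2756 and 4099 CPM in the CD122lo samples. The lowest CD122hi sum, in preparation 3, stood above the highest CD122lo sum, in preparation 8, so the groups did not overlap. The means were 7521 ± 2075 CPM (SD, n = 4) in CD122hi and 2845 ± 1012 CPM (SD, n = 4) in CD122lo cells. Within preparations 2, 3, 5 and 8 the sum was 3.29, 3.05, 2.46 and 2.15 times as high in CD122hi cells, a mean log2 ratio of 1.43 ± 0.28 (SD, n = 4). No test is given for this difference, since it chose the members.

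Summed over all 36 members, the log2 ratio was 1.31 ± 0.24 (SD, n = 4), with 1.60, 1.40, 1.19 and 1.04 in preparations 2, 3, 5 and 8. Its mean was 1.50 in preparations 2 and 3 and 1.12 in preparations 5 and 8. The members took up 2.99% ± 0.71 (SD, n = 4) of all TPM in CD122hi and 1.19% ± 0.37 (SD, n = 4) in CD122lo cells, and 0.80% ± 0.21 and 0.33% ± 0.10 of all counts (SD, n = 4). The 9 unmarked members summed to 479 ± 66.8 CPM (SD, n = 4) in CD122hi and 413 ± 22.4 CPM (SD, n = 4) in CD122lo cells. Much of this sum was 1 short and abundant member, with 284 ± 63.0 and 151 ± 46.6 CPM (SD, n = 4). Its excess in CD122hi cells was larger than that of the sum. The other unmarked members together therefore had a lower mean in CD122hi than in CD122lo cells.

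**Figure D2:**
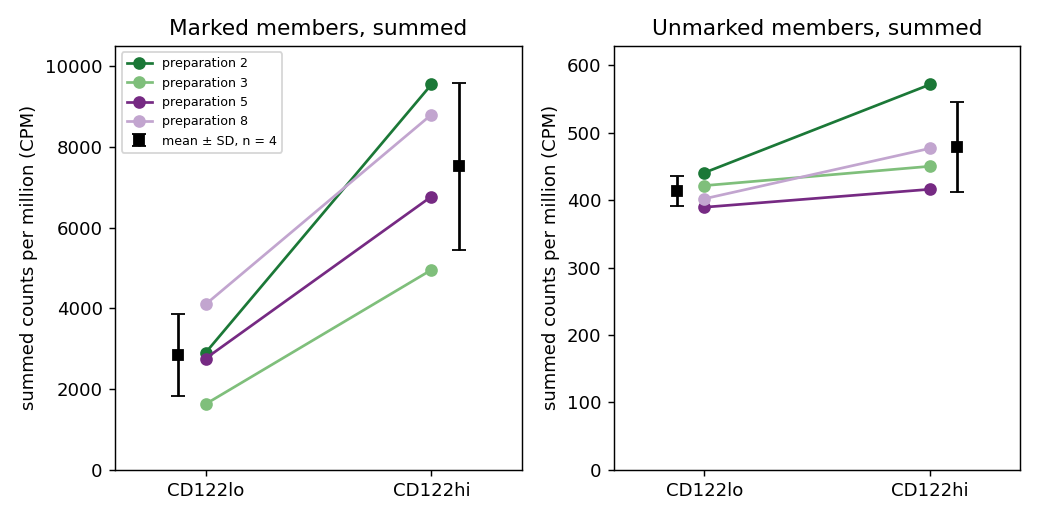
Summed CPM (y axis, from 0) of the 27 marked members (left) and the 9 unmarked members (right) in CD122lo and CD122hi samples, with a line per preparation and black squares for the mean ± SD of 4 samples. All 4 lines on the left climb steeply, whereas the sums on the right lie between 390 and 572 CPM.

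By number, the most abundant marked member was gene 7076, first listed transcript uc007pue.3, with a length of 464 bases. It reached 3776, 2263, 2828 and 3355 TPM in the CD122hi samples of preparations 2, 3, 5 and 8, and 1127, 620, 1299 and 1588 TPM in the CD122lo samples. Every CD122hi sample was higher than every CD122lo sample. Its log2 ratio was 1.52 ± 0.40 (SD, n = 4) on the CPM scale, with 1.85, 1.87, 1.22 and 1.13 in preparations 2, 3, 5 and 8.

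Gene 7088, first transcript uc007puq.3, 725 bases long, ranked next. It stood at 2277, 1821, 2276 and 2544 TPM in the CD122hi samples and at 1352, 950, 1385 and 1708 TPM in the CD122lo samples of the same preparations. These groups were also separate, but by a small margin, 1821 against 1708 TPM. The log2 ratio of gene 7088 was 0.82 ± 0.15 (SD, n = 4), the smallest mean ratio of the 27 marked members. Gene 7076 ranked first among all 36 members in the 4 CD122hi samples and in no CD122lo sample. Among CD122lo samples, gene 7088 ranked first in preparations 2, 3 and 5. In the CD122lo sample of preparation 8 the member ranked 3 by mean TPM was first, at 1744 TPM.

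Ratios of single marked members ranged from this 0.82 to 1.94, with a median of 1.58, whereas the median over all 13313 tested genes was 0.007 and over the 4507 tested genes under 1800 bases 0.054. The member with a ratio of 1.94, ranked 20 by TPM, had 170, 84.6, 108 and 173 CPM in CD122hi samples and 32.2, 12.8, 32.8 and 81.5 CPM in CD122lo samples. Its lowest CD122hi and highest CD122lo values, 84.6 and 81.5 CPM, nearly met. The lowest CD122hi CPM lay above the highest CD122lo CPM for 21 of the 27 marked members and for 1 of the 9 others, against 2.69% of all tested genes. The rule chose the marked members by these same ratios. Neither comparison with all tested genes is therefore support for a difference. Across preparations 2, 3, 5 and 8, the median ratio of marked members was 1.86, 1.79, 1.35 and 1.18. Over all tested genes it was -0.019, 0.11, -0.022 and -0.033. Preparation 8 gave the smallest of the 4 ratios for 23 of the 27, all from the same libraries. The share of all tested genes with their smallest ratio in preparation 8 was not computed.

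**Figure D3:**
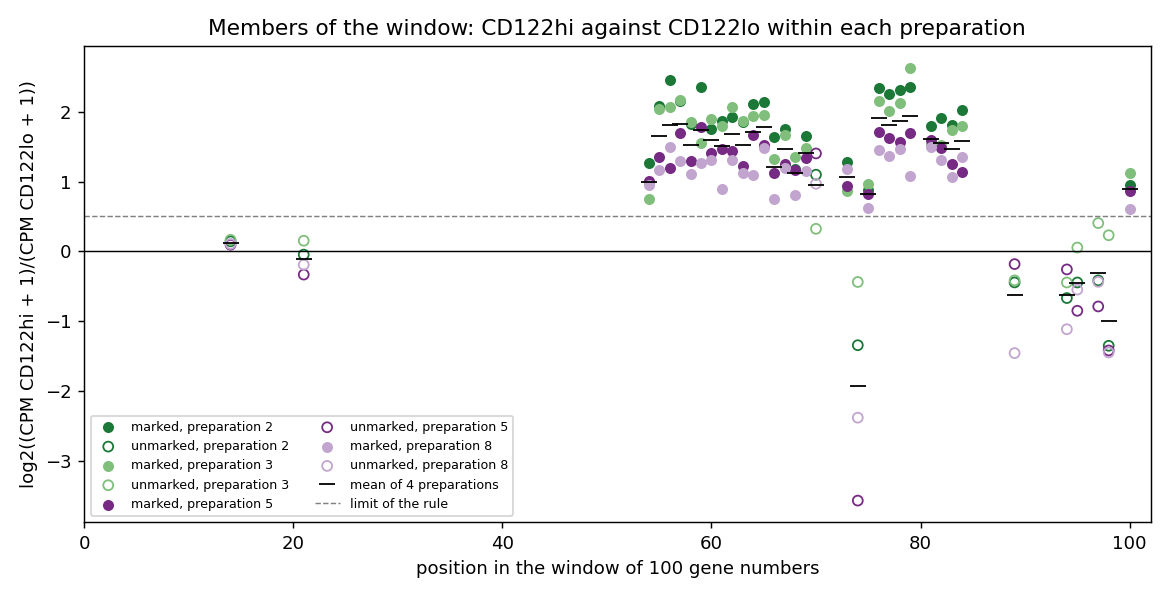
Log2 ratio of CD122hi to CD122lo (y axis, pseudocount 1 CPM) of the 36 members by their position in the run of 100 gene numbers (x axis). Filled points are marked members and open points unmarked ones, coloured by preparation, and short bars are means of 4 preparations. Filled points lie between 0.61 and 2.63, and those of preparation 8 are mostly the lowest.

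In edgeR's quasi-likelihood test across all tested genes, with preparation as a block and a Benjamini-Hochberg false discovery rate (FDR) under 0.01, 318 genes (2.39%) were called, 285 higher in CD122hi cells (2.14%) and 33 lower (0.248%). Of the 36 members, 27 were called, all of them higher in CD122hi cells and the same 27 that were marked. Because the same contrast chose them, this count is no support for a difference, and nothing is read from it. It fell to 0 when preparation 2, 3 or 5 was left out and to 21 without preparation 8. In that last fit 119 of the 13312 tested genes were called. In the edgeR fits without a preparation, 32 or 33 members had an unadjusted p under 0.05. So had 3935 to 4526 of all tested genes. The number of members called was also 0 in edgeR without the block and with totals alone as the scaling. There 30 and 33 members had an unadjusted p under 0.05, and so had 1416 and 4581 of all tested genes. These counts are no support for a difference either, since the same contrast chose the members. With DESeq2, 31 members were called at the same FDR, against 20.9% of all tested genes. Of these, 28 were higher in CD122hi cells, against 7.77% of all tested genes, and 3 were lower, against 13.1%. At an FDR under 0.05 edgeR called 29 members (19.2% of all tested genes), 28 higher (10.5%) and 1 lower (8.73%).

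Of the 9 unmarked members, which the ratio itself set apart from the marked ones, 3 were short enough to be marked. The one ranked 11 by TPM, with a length of 536 bases, lay within the stretch of marked members. It had 370, 244, 231 and 291 CPM in CD122hi and 172, 195, 86.7 and 148 CPM in CD122lo samples. Its groups did not overlap either, and it missed the rule through preparation 3, where its ratio was 0.32. The weakest ratio of a marked member in any preparation, for which the rule required more than 0.5, was 0.61. By mean log2 ratio, 0.95 ± 0.45 (SD, n = 4), this unmarked member stood above gene 7088.

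Gene 7087, first transcript uc007pup.1, with a length of 1722 bases, lay directly between 2 marked members and had the opposite direction. It was counted 26, 83, 13 and 5 times in the CD122hi samples and 97, 73, 343 and 142 times in the CD122lo samples of preparations 2, 3, 5 and 8. As CPM these are 1.17, 2.44, 0.59 and 0.17 against 4.49, 3.66, 17.8 and 5.09, so every CD122hi sample was lower than every CD122lo sample, a separation in this direction that 2.87% of all tested genes showed. The log2 ratio was -1.93 ± 1.35 (SD, n = 4), and it ranged from -3.57 in preparation 5 to -0.44 in preparation 3. At so few counts the pseudocount of 1 CPM draws the ratio towards 0, and edgeR's fit gave a log2 fold change of -2.91, or -3.80 to -2.20 with a preparation left out.

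Gene 7111, first transcript uc007pvy.2, with a mean length of 1570 bases, was the least abundant member. It had 0.72, 1.70, 1.94 and 1.63 CPM in CD122hi and 3.38, 1.30, 6.85 and 6.16 CPM in CD122lo samples. The populations overlapped, since in preparation 3 the CD122hi sample was the higher one. The mean log2 ratio was -1.0 ± 0.82 (SD, n = 4), and edgeR's fit gave a log2 fold change of -1.44, or -1.96 to -1.19 with a preparation left out. Genes 7087 and 7111 were picked as the lowest ratios among the unmarked members, so they are a description too.

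The 6 long unmarked members, with effective lengths above the limit, had mean log2 ratios from -0.62 to 0.13, negative in 5 of 6, and none exceeded 0.41 in any preparation. The longest marked member had an effective length of 1738 bases and the shortest of these 6 had 2335, on either side of the limit of 1800. For the limit on level, members had at least 3.32 mean TPM and the other numbers of the run at most 0.79.

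**Figure D4:**
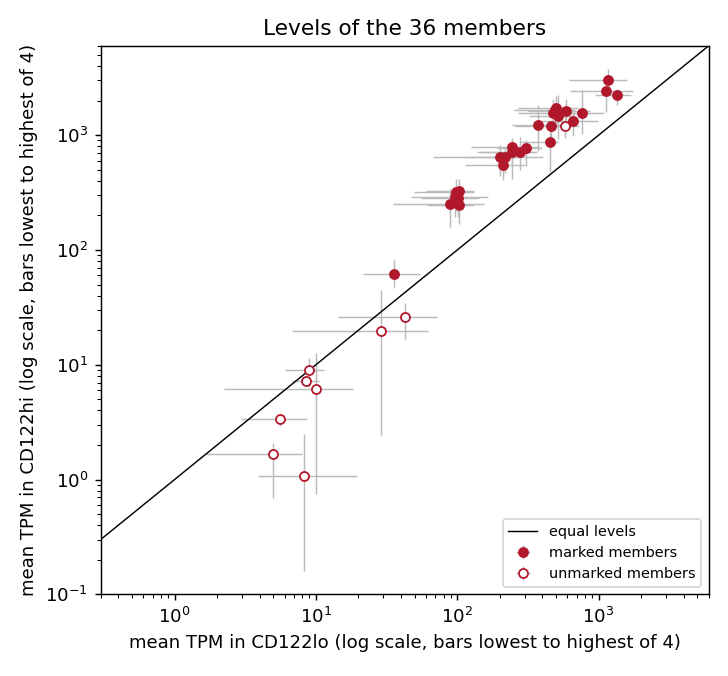
Mean TPM of the 36 members in CD122lo (x axis) and CD122hi cells (y axis), both on log scales, with bars from the lowest to the highest of 4 samples. Marked members (filled) lie above the line of equal levels from 48.8 to 2107 TPM in mean level, and most unmarked members (open) lie below it at under 35 TPM.

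Levels over all 8 samples are not independent of the rule, which set a minimum, added a pseudocount that works against low genes and favoured short ones. The marked members were abundant, with a mean TPM between 48.8 and 2107 and a median of 541, against a median of 17.2 over all tested genes and of 21.2 over those under 1800 bases. By mean TPM 20 of the 27 were among the 500 most abundant of the 13313 tested genes, and the best placed ranked 69. The 9 unmarked members had mean TPM values from 3.32 to 896. All 36 members would have passed the minimum of 1 TPM in either population alone, so none entered only through the population in which it was high.

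Preparations also differed in the level of the members within each population. Preparation 3 had the lowest CPM of the 4 CD122hi samples and of the 4 CD122lo samples for all 27 marked members, against 35.7% of all tested genes and 4 of the 9 unmarked members. The log2 ratio was larger in both preparations 2 and 3 than in preparations 5 and 8 for 23 of the 27, against 37.1% of all tested genes. Among CD122lo samples, marked members were lower in preparations 2 and 3 than in preparations 5 and 8 by a median log2 difference of -0.74, and all tested genes by -0.33. Among CD122hi samples the medians were -0.15 and -0.21. Over all tested genes the SD of this difference was 1.12 in CD122lo and 1.08 in CD122hi samples, wider than the gap between these medians. Marked members share libraries, and most of them had reads that RSEM divided with other genes. The counts of 27 and 23 are therefore not counts of separate observations. The part of preparation in the size of the ratios was not tested.

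A pair of long unmarked members differed more between preparations than between populations. The member ranked 30 had 42.0, 64.6, 7.89 and 3.83 CPM in CD122hi samples and 57.4, 86.5, 9.08 and 12.3 CPM in CD122lo samples of preparations 2, 3, 5 and 8. The member ranked 32 had 30.7, 37.4, 4.61 and 2.46 CPM in CD122hi and 49.4, 51.3, 5.71 and 6.48 CPM in CD122lo samples. Both were lower in CD122hi than in CD122lo cells in all 4 preparations, with mean log2 ratios of -0.62 each. Both were higher in preparations 2 and 3 than in 5 and 8, by a log2 difference between 2.63 and 3.02, whereas for the marked members this difference ranged from -1.34 to 0.25.

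The members' shares of the marked sum were compared between samples. Across the 27 marked members, the log2 shares of the sum in any 2 of the 8 samples correlated with Pearson's r between 0.919 and 0.992 over 28 pairs of samples. This correlation is across genes, which are not independent replicates and share libraries and length, and the shares of the members lie far apart within each sample. It was not computed for other genes. The share of gene 7088 in the marked sum was 17.4% ± 2.0 (SD, n = 4) in CD122lo and 11.4% ± 1.5 (SD, n = 4) in CD122hi cells, lower in CD122hi in all 4 preparations. In all, 5 marked members had a smaller share in CD122hi in every preparation and 10 had a larger one. These changes restate each member's ratio relative to that of the sum, which the rule used, and are a description. Shares of 1 sum cannot all rise, so a fall in the large share of gene 7088 raises others. Shares also depend on how RSEM divided reads among members. The largest gain was 1.45 percentage points, for the member ranked 5, from 3.57% ± 0.21 to 5.02% ± 0.25 (SD, n = 4). The 5 members with the largest mean share over all 8 samples made up 47.8% of the sum in CD122lo and 40.9% in CD122hi cells.

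Other features of the marked members were their transcripts and their shared reads. A single transcript was listed for 25 of the 27 (92.6%), against 33.3% of all tested genes and 48.4% of those under 1800 bases. The marked members were 358 to 1886 bases long, with a median of 490, and 19 of them were under 600 bases. Expected counts that are not whole numbers, beyond a tolerance of 0.005, arise where RSEM divides reads among genes. Such values made up 89.4% of the 216 values of marked members, 44.4% of those of unmarked members and 21.9% over all tested genes. Of the marked members 21 had them in all 8 samples and 2 in none.

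Despite these shared reads, RSEM's credibility intervals for TPM were about as wide as those of other genes of like count. The interval's width was 2.99% to 18.0% of TPM, with a median of 7.05%. Relative to the median width of tested genes in the same bin of counts, the median of marked members was 0.942 and 20 of 27 were below 1. The exception was the member ranked 26, with 3 listed transcripts and 1772 bases, whose interval was 3.03 times as wide, and the next widest was 1.12 times.

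**Figure D5:**
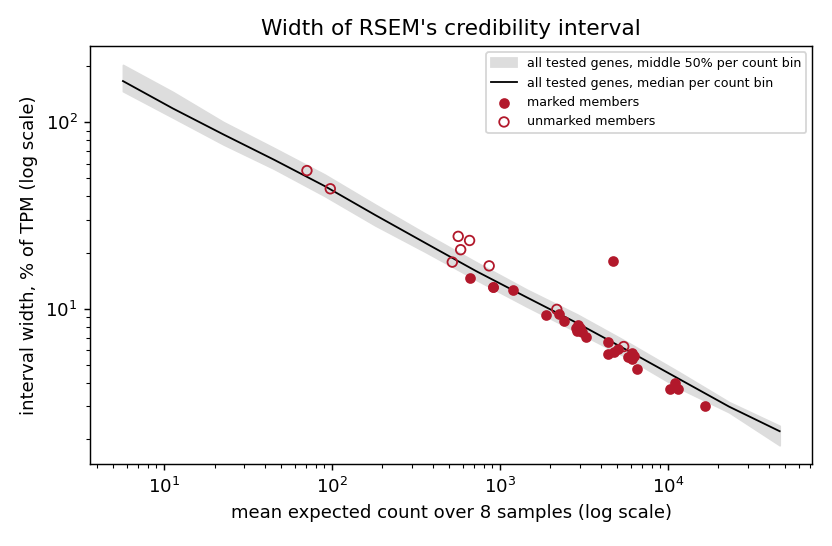
Width of RSEM's credibility interval as a percentage of TPM (y axis, median of 8 samples) against mean expected count (x axis), both on log scales. The black line and grey band are the median and the middle 50% of all tested genes per bin of counts. Marked members (filled) follow the line except for 1 at 18.0%.

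The marked genes of the next windows, chosen by the same contrast, are set beside the run as a description. The 19 marked genes from 6877 to 6976 summed to 3293 ± 969 CPM (SD, n = 4) in CD122hi and 1068 ± 439 CPM (SD, n = 4) in CD122lo cells, with log2 ratios of 2.06, 1.90, 1.47 and 1.25 in preparations 2, 3, 5 and 8. The 7 marked genes from 18786 to 18885 summed to 1982 ± 598 and 657 ± 263 CPM (SD, n = 4), with log2 ratios of 1.99, 1.84, 1.41 and 1.28. In both, as in the 27 marked members, the ratio was largest in preparation 2 and smallest in preparation 8. The 4 marked genes of the fourth window, from 4546 to 4645, had another order. Their log2 ratios were 0.90, 1.79, 1.76 and 0.67 in preparations 2, 3, 5 and 8, largest in preparation 3 and smallest in preparation 8. All these ratios come from the same 8 samples, so they are not separate evidence.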

How the data were processed

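RNA-seq of CD122hi and CD122lo Vγ7+ IELs (4 samples each) was used as deposited. The authors aligned paired reads with Bowtie2 2.1.0 and quantified genes with RSEM 1.2.11 on the mm10 genome and UCSC knownGene, per the paper (the submitters' processing notes list hg19), and deposited expected counts, which are estimated fragment numbers, and TPM values, which are scaled to effective length and keep no depth. Credibility intervals are RSEM's, and their level is not given in the sources used here.

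Members and lists were chosen with earlier results of these data known. CPM were taken from expected counts and file totals. For the test, expected counts were rounded, genes with a mean TPM above 1 were kept as in the study's methods, and edgeR 4.0.16 (TMM, glmQLFit, glmQLFTest, R 4.3.3) was fitted with preparation as a block. DESeq2 1.42.0 (the study's tool) and limma-voom 3.58.1 were alternatives. Fits and window search were tested on simulated data. Partners come from the same mice, and deviations of log2 CPM (prior count 2) from the population means correlated between partners with r from 0.624 to 0.843, across genes. The same correlation was not computed between samples of different preparations. These values therefore do not show that partners are more alike than other pairs. Since the files give no symbols, the 2 marked members with the highest mean TPM and the 2 unmarked members with the lowest mean log2 ratio were named by number. Gene lists by symbol were not analysed here. Other columns of the files (FPKM) were not used here. With totals of 19267478 to 34060340 counts, each marked member had at least 136 expected counts in any sample. Counts of this size do not show how well RSEM divided shared reads among genes.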

Additional observations from a re-analysis of the deposited data

Results flagged for a closer look

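In 23 groups of 4 values (totals, sums over members and their ratios, and levels and ratios of the 4 members given by number), the gap between an extreme value and its neighbour was divided by the range of the group and read against Dixon's 95% critical value. About 1 in 20 groups exceeds it by chance, and 1 of the 23 did. It was the log2 ratio of gene 7111, with a gap-to-range ratio of 0.943. The log2 ratio was 0.23 in preparation 3 and -1.35, -1.42 and -1.45 in preparations 2, 5 and 8. The counts behind it in preparation 3 were 58 in the CD122hi and 26 in the CD122lo sample.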

How the results depend on the processing

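The number of genes called over the whole table moved with the test, the pairing, the scaling and the filter. The 318 genes called by edgeR (285 higher in CD122hi cells, 33 lower) became 2783 with DESeq2 (1035 and 1748), 804 with limma-voom (590 and 214), 591 with every gene of at least 1 count (490 and 101), and 2556 at an FDR under 0.05 (1394 and 1162). Without the replicate block edgeR called 0 genes (1416 had an unadjusted p under 0.05). With totals alone as the scaling it called 0 as well (4581 had an unadjusted p under 0.05). Leaving out a preparation gave 0 to 119 genes, 0 without preparation 2, 3 or 5 (3935, 4323 and 4526 genes had an unadjusted p under 0.05). The 27 members called became 0 without the replicate block (30 members at an unadjusted p under 0.05), 0 with totals alone as the scaling (33 members), and 0 to 21 with a preparation left out. In the other settings 26 to 31 members were called, while the genes called over the whole table ranged from 235 to 2783. The 26 members and 235 genes came with RLE in place of TMM as the scaling. The 31 members and 2783 genes came with DESeq2. Since the same contrast chose the members, these counts are no support for a difference. The lowest FDR of any gene in edgeR was 0.00442 in the main fit and 0.142 without the replicate block. With totals alone it was 0.0106, just above the limit of 0.01, and without preparation 2, 3 or 5 it was between 0.0202 and 0.0382. The cause was not tested, beyond the fewer samples of the fits without a preparation.

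The log2 ratio of all members summed, 1.31, was 1.30 without the replicate block, 1.21 to 1.40 with a preparation left out, and between 1.12 and 1.50 in the other settings except the 9 unmarked members alone, at 0.20. This 0.20 rests on the short and abundant unmarked member, without which their mean sum was lower in CD122hi cells. Fits with all members as 1 feature, posterior mean counts and pairs of preparations were added after seeing the data. The number of marked genes stayed between 20 and 28, and of members between 30 and 37, except in a window of 200 numbers, with 46 and 62, which is wide enough to reach the neighbouring peak. Leaving out a preparation gave 27 to 28 marked genes and 36 members each time. With a log2 ratio above 1 the window ran from 6998 to 7097, with 30 members. The 4 members given by number kept their direction in every fit that tested them. Genes 7087 and 7111 were removed by a mean TPM above 5. Without symbols, cell types other than IELs in the sorted samples were not checked.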
